A study of Rattus norvegicus with 6 samples.

Results

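The genes described here are those for the proteins of the mitochondrial ribosome, taken as every row of the count tables whose gene symbol is Mrpl (large subunit) or Mrps (small subunit) followed by digits and at most 1 letter. This gave 70 rows and 69 different symbols, since Mrpl1 had 2 rows, out of 17048 rows and 16881 symbols in all. Of the 70 rows, 42 were large subunit genes and 28 small subunit genes. They were measured in rat neural stem/progenitor cells (NSPCs), the multipotent precursors of neurons and glia, isolated from the telencephalon of embryonic Sprague-Dawley rats and expanded as neurospheres. All libraries came from wild-type cells kept for 24 h in medium that maintains stemness, on films of carbon nanotubes fused with graphene oxide nanoribbons. The films differed in electrical conductivity, set by how long the carbon was oxidised, and are called “High”, “Medium” and “Low”, with 2 libraries each (6 in all). In the paper, the poly-D-lysine coating given before laminin was adjusted by film to match the laminin bound. Its sequencing methods do not restate the coating. Any part of the coating in the results below was not tested and cannot be told apart from the film. There was no library from cells on ordinary culture plastic among those analysed, so each comparison is between films. The labels do not say whether the 2 libraries of a film came from separate cultures or embryos, so p-values measure the spread between these libraries, which may be technical.

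The mitochondrial ribosome translates the few messenger RNAs that the mitochondrial genome encodes, all of them for subunits of the respiratory chain and ATP synthase. Its ribosomal RNAs come from mitochondrial DNA, whereas every one of its proteins is encoded in the nucleus, made in the cytosol and imported. The small subunit binds the messenger RNA and decodes it, and the large subunit joins the amino acids and releases the growing chain through an exit tunnel held close to the inner membrane. Some of the proteins have bacterial counterparts, and others are found only in mitochondria. Neural progenitors rely strongly on glycolysis, and mitochondrial respiration gains weight as they become neurons.

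The symbols do not follow the structure in every case. Mrps18a and Mrps30 are built into the large subunit in spite of their names, and the Mrps36 product is now known as a component of the α-ketoglutarate dehydrogenase complex (Kgd4 in RefSeq). The 3 genes were kept with the small subunit by symbol, and only the ratio of the small to the large sum is also given with the subunits assigned by structure. All other sums, counts and medians by subunit follow the symbols.

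Beyond the shared complex, the genes were compared for what lies at their start. RefSeq promoters (assembly GRCr8, 250 bases before to 50 bases after the annotated start, 300 bases in all) were matched for 55 of the 69 symbols, the unmatched ones being Mrpl13, Mrpl15, Mrpl16, Mrpl19, Mrpl21, Mrpl35, Mrpl38, Mrpl43, Mrps12, Mrps22, Mrps24, Mrps28, Mrps34 and Mrps35. The letters of 4 motifs were searched on both strands, namely GCANGCGC for NRF1 (a factor known for nuclear genes of mitochondrial proteins), CCGGAAG for the ETS family, AAGATGGC for YY1 and GGGCGG for the SP family. Matches of different motifs may overlap, and each motif was counted on its own.

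Every 1 of the 4 motifs was held by a larger share of the matched mitoribosomal promoters than of all 33469 promoters of the same length. The NRF1 letters were in 16 of 55 (29.1%, against 9.10% of all promoters and 11.5% of those of protein-coding genes). The ETS letters were in 18 (32.7%, against 8.75% and 10.7% in the same order). The YY1 letters were in 14 (25.5%, against 3.17% and 3.68%), and the SP letters in 29 (52.7%, against 33.1% and 41.8%). At least 1 of the motifs was in 46 of the 55 (83.6%), against 41.3% of all promoters and 50.5% of the 21842 promoters of protein-coding genes. Of the 55 genes, 18 (32.7%) had another gene starting head to head within 1000 bases, against 11% of all promoters and 10.5% of protein-coding ones. A match is a run of letters and not a bound site.

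Shown here are the matched promoters of genes whose Low and Medium libraries all lay above, or all below, both High libraries. Up to 5 were taken in each direction by unadjusted p. The genes were picked from these same data, and edgeR called none of them. Such genes were 10.4% (higher) and 4.48% (lower) of the members tested, against 8.06% and 10.1% of all rows. Mrpl54, Mrpl20, Mrpl36 and Mrpl41 were higher in every Low and Medium library than in both High libraries, whereas Mrps27, Mrpl45 and Mrps18a were lower in every one. Capitals mark the letters of a motif on either strand, and each sequence runs 5′ to 3′ along the gene's own strand.
Mrpl54, chr7:9103275-9103574, plus strand: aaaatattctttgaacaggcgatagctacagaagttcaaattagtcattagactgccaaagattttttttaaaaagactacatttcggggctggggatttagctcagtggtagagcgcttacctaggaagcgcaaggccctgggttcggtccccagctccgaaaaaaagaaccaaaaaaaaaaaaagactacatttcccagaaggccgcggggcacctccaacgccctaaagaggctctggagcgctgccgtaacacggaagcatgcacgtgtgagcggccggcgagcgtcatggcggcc
Mrpl20, chr5:171690948-171691247, plus strand: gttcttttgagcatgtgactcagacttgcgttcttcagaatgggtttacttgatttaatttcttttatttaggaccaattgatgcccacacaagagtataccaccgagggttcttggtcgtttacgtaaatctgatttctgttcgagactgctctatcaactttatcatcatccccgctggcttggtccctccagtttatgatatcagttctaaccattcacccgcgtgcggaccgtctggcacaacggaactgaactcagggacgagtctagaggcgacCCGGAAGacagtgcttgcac
Mrpl36, chr1:31795072-31795371, minus strand: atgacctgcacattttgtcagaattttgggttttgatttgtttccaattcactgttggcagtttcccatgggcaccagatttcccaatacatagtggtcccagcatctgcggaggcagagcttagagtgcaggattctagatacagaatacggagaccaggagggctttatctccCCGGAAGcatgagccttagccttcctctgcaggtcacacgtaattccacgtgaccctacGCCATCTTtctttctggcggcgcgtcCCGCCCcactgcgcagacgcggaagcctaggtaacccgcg
Mrpl41, chr3:28179706-28180005, minus strand: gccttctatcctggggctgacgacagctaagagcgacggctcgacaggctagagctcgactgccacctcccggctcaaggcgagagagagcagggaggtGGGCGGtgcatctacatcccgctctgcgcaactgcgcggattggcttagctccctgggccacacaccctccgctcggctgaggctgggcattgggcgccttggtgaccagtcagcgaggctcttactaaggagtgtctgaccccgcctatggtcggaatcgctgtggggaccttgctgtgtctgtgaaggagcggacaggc
Mrps27, chr2:32473954-32474253, plus strand: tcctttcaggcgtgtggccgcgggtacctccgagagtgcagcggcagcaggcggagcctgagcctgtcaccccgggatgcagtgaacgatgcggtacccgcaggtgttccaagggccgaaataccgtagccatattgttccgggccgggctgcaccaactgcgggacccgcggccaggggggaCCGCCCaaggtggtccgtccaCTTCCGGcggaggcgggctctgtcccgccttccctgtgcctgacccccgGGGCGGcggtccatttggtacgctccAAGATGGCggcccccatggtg
Mrpl45, chr10:82804789-82805088, plus strand: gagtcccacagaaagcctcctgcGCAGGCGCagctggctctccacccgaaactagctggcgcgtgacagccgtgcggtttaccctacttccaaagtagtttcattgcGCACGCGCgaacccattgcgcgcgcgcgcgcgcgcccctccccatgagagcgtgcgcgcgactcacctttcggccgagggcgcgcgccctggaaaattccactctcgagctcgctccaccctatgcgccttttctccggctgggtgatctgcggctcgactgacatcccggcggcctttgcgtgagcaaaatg
Mrps18a, chr9:22367331-22367630, minus strand: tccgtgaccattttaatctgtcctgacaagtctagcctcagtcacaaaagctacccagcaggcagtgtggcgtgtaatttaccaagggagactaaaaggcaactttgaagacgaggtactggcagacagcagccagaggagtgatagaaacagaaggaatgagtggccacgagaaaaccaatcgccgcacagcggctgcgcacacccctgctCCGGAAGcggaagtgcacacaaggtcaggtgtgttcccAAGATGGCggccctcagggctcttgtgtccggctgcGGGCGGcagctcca

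Among these 7 promoters, that of Mrpl54 held none of the 4 motifs. Mrpl36, Mrps27 and Mrps18a each held the ETS, YY1 and SP letters, Mrpl20 the ETS letters alone, Mrpl41 the SP letters alone, and Mrpl45 the NRF1 letters at 2 positions. The start of Mrps27 lay 91 bases from that of Ptcd2, which is read in the other direction.

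The libraries held between 5124863 and 6213676 counts. The share of counts on ribosomal RNA rows was 26.1% and 38.4% in the High libraries and 7.16% to 13.0% in the 4 others. With those rows left out of the fit, the log2 ratio of the summed mitoribosomal level (Low and Medium over High) was 0.37, against 0.38 with them. Any other part of this share in the results below was not tested. Medium replicate 1 had a count on 5355 rows, and the other libraries on 6689 to 7809. Of the 10 listed NSPC markers, 8 were detected, and their summed level was 3197 to 3504 CPM (counts scaled to library size, with TMM normalization) on High, 5479 to 5523 on Medium, and 4645 to 6177 on Low. Vim, Sox9, Sox2, Nes, Hes1 and Fabp7 had counts in every library, while Hes5 and Msi1 were at 0 in all 6. Vim gave the largest part of the sum. Vim, Sox9, Sox2 and Nes were lower in both High libraries than in any other, and Hes1, Notch1 and Pax6 overlapped between films. Fabp7 stood at 205 and 225 CPM on High, 342 and 156 on Medium, and 42.3 and 119 on Low. Neuron markers (5 of 8 detected, with Neurod1, Rbfox3 and Syt1 at 0) summed to 12.4 to 12.6 CPM for High, 0.172 to 0.984 for Medium and 29.7 to 33.9 for Low. The High sum came almost wholly from a different gene in each library (Stmn2 60 and 0 counts, Snap25 0 and 52). Both genes were at 0 on Medium and Low. Tubb3 had 0 counts on High and Medium, and 96 and 72 on Low. Map2 had 0 and 0 counts on High, 0 and 6 on Medium, and 138 and 20 on Low. Dcx had 0 and 1, 1 and 0, and 0 and 85 counts in the same order. Astrocyte markers (4 of 6, with Aldh1l1 and Aqp4 at 0) summed to 232 to 246, 329 to 337 and 251 to 505 CPM in the same order. Oligodendrocyte lineage markers (6 of 7, with Sox10 at 0) summed to 326 to 357, 547 to 639 and 619 to 748 CPM. Endothelial and meningeal markers (2 of 6, with Cldn5, Dcn, Pdgfrb and Pecam1 at 0) reached 329 CPM in Medium replicate 2 and at most 35.8 elsewhere. Microglia markers (2 of 5, with Csf1r, Cx3cr1 and Itgam at 0) summed to at most 7.10 CPM. The part of these marker levels in the results below was not tested. In bulk samples like these, fewer cells of a type and less RNA per cell cannot be told apart.

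Messenger RNA was found in these cells for nearly all of the 70 rows, at moderate levels. The rows need not cover every protein of the mitochondrial ribosome. A count was present for 68 of the 70 rows in at least 1 library and for 54 in every library. The members took 26678 and 19857 counts on High, 39374 and 40816 on Medium, and 47442 and 37502 on Low. As a share of all counts this was 0.487% and 0.367% on High, 0.768% and 0.690% on Medium, and 0.764% and 0.687% on Low. With the ribosomal RNA rows left out of the total, the shares were 0.659% and 0.595%, 0.829% and 0.794%, and 0.822% and 0.744%, so the High libraries remained below the others. Because QuantSeq reads start at the 3′ end of a transcript, 1 transcript gives about the same number of counts whatever its length, and levels of different genes are compared as CPM without a length term.

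The 5 large subunit genes with the highest mean level were Mrpl53, Mrpl18, Mrpl17, Mrpl54 and Mrpl10. Mrpl53, a protein specific to mitochondria, stood at 237 and 198 CPM on High, 156 and 404 on Medium, and 462 and 229 on Low. Mrpl18, a counterpart of bacterial L18, stood at 136 and 231, 172 and 156, and 319 and 249 CPM in the same order. Mrpl17, a counterpart of bacterial L17, ranged from 157 to 261 CPM. Their ranges overlap one another, so the order among these genes is not larger than the spread between libraries, and for none of these 3 did High stand apart from the others.

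In the small subunit, the 5 highest were Mrps21, Mrps33, Mrps18b, Mrps9 and Mrps16. Mrps21, a counterpart of bacterial S21, stood at 145 and 147 CPM on High, 496 and 286 on Medium, and 187 and 112 on Low. Both Medium libraries thus lay above all others, and the Low libraries lay on both sides of High. Mrps9 ranged from 95.3 to 192 CPM and Mrps16 from 47.5 to 187, with the films overlapping. Mrpl43 and Mrps10 were listed at 0 counts in all 6 libraries, where 1 count was worth 0.145 to 0.239 CPM. At this depth a count of 0 allows up to 3 counts in a library, for counting error only.

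**Figure D1:**
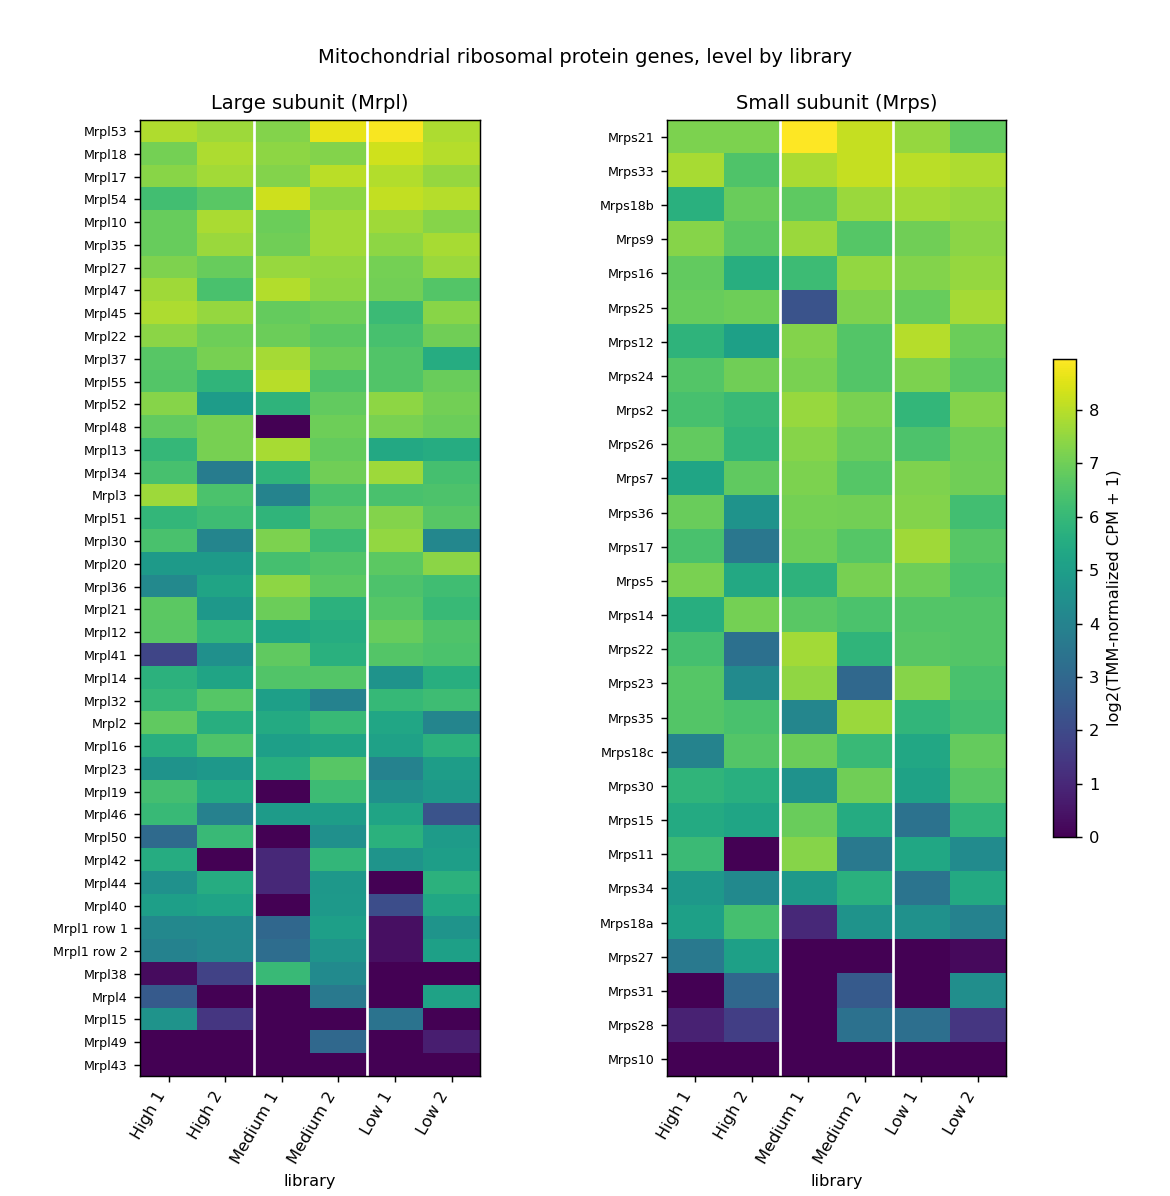
Level of each of the 70 gene rows, as log2(TMM-normalized CPM + 1) by colour, in the 6 libraries (columns), with large subunit rows on the left, small subunit rows on the right, and rows ordered by mean level. Most rows lie in the middle of the scale in every library, and the dark cells are single libraries at or near 0, such as Mrpl48 in Medium replicate 1, or genes at 0 everywhere, Mrpl43 and Mrps10.

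The question of the design is how the transcript levels of NSPCs differ between films of different conductivity. Summed over the 70 rows, the mitoribosomal level was lower on the High film than on the others. The sum was 5496 and 4737 CPM on High, 6758 and 6695 on Medium, and 6873 and 6295 on Low, that is 5117 ± 537, 6726 ± 44.5 and 6584 ± 409 (mean ± SD, n = 2). Neither High library overlapped the other 4, and Medium and Low overlapped. The mean of Low and Medium was 1.30 times that of High (log2 0.38), and 1.70 times (log2 0.77) with libraries scaled by their totals alone. Because the genes were chosen as a set with earlier results known, no p is given for this sum.

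The difference was larger in the small subunit. Large subunit genes summed to 3400 and 3070 CPM on High, 3606 and 3921 on Medium, and 4065 and 3593 on Low (3235 ± 234, 3764 ± 223 and 3829 ± 334, n = 2), a ratio of 1.17 for Low and Medium over High. Small subunit genes summed to 2096 and 1667 CPM on High, 3151 and 2773 on Medium, and 2808 and 2702 on Low (1882 ± 303, 2962 ± 267 and 2755 ± 75.2, n = 2), a ratio of 1.52. High lay below the other libraries in both sums. The median large subunit row stood at 70.4 and 46.6 CPM on High, 57.5 and 85.2 on Medium, and 81.9 and 68.2 on Low. By that median the films overlapped. The median small subunit row stood at 73.1 and 48.4, 120 and 94.7, and 95.5 and 95.6 CPM in the same order, with High below the others.

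The ratio of the small to the large sum, which does not depend on how libraries are scaled to each other, was 0.616 and 0.543 on High, 0.874 and 0.707 on Medium, and 0.691 and 0.752 on Low. Its group values were 0.580 ± 0.0519, 0.791 ± 0.118 and 0.721 ± 0.0433 (n = 2), and the High libraries were again the lowest. With the subunits assigned by structure the ratio was 0.541 and 0.474, 0.825 and 0.612, and 0.629 and 0.678. Both High values again lay below the other 4, the nearest being 0.541 against 0.612. For any single value, 4 libraries set against 2 allow an exact two-sided permutation p of 0.133 at the least.

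**Figure D2:**
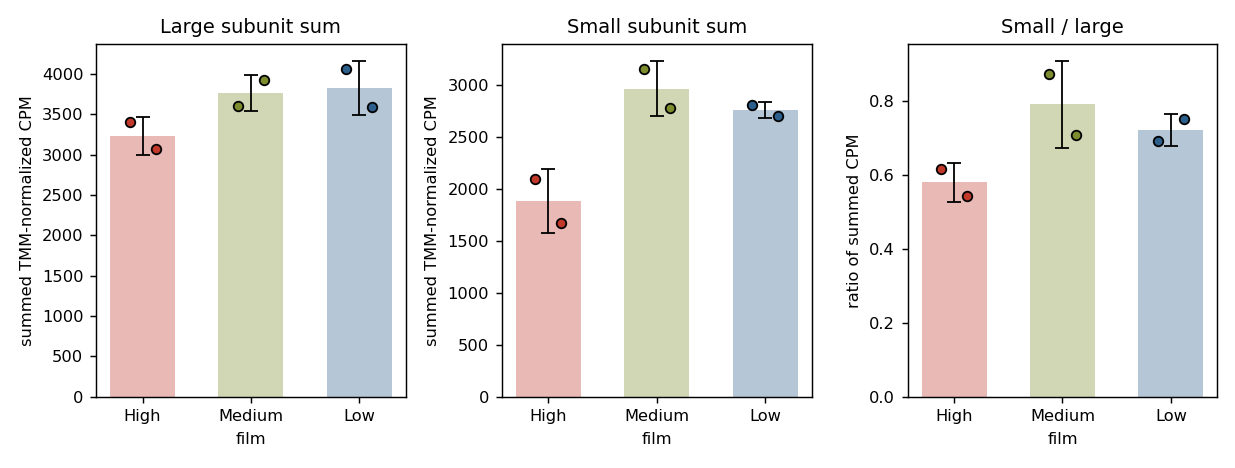
Summed TMM-normalized CPM of the large subunit genes (left) and small subunit genes (middle), and the ratio of the small to the large sum (right), by film. Bars are means, error bars SD (n = 2) and points libraries; in each panel both High libraries lie below the 4 others, with group ratios of 0.580, 0.791 and 0.721.

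Set against other nuclear genes of translation and respiration, the mitoribosomal sum was 0.0484 and 0.0472 of the cytosolic ribosomal protein sum on High, 0.0554 and 0.0604 on Medium, and 0.0608 and 0.0554 on Low. High was below the others here as well. The cytosolic ribosomal proteins themselves (102 rows) had a sum in Low and Medium 1.07 times that of High. The mitoribosomal sum relative to that of the nuclear-encoded respiratory chain and ATP synthase subunits was 0.208 and 0.176 on High, 0.192 and 0.225 on Medium, and 0.192 and 0.217 on Low, and these values overlapped. The respiratory chain sum (79 rows) in Low and Medium was 1.22 times that of High.

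Gene by gene, no mitoribosomal gene passed the threshold in any comparison of films. Of the 70 rows, 67 passed the filter on low counts, and Mrpl49, Mrpl43 and Mrps10 did not. In edgeR's quasi-likelihood fit, with p-values adjusted by Benjamini and Hochberg over all 7729 rows tested, 0 of 67 were called at an adjusted p under 0.05 in Low against High (background 0.0518% of all rows), Medium against High (0.0129%), Low against Medium (0%) or the combined contrast, in which Low and Medium were averaged and set against High (0.129%). The smallest adjusted p of a member was 0.899, 0.908, 1 and 0.694 in that order. At an unadjusted p under 0.05 there were 3 higher and 0 lower members in Low against High (background 4.27%), namely Mrpl54, Mrpl20 and Mrps12 with log2 fold changes of 1.58, 2.26 and 2.06. There were 3 and 0 in Medium against High (4.04%), namely Mrpl54, Mrps21 and Mrpl36 with log2 fold changes of 1.45, 1.42 and 2.35. There were 0 and 2 in Low against Medium (1.51%, Mrps21 and Mrpl13), and 2 and 1 in the combined contrast (5.5%, Mrpl54 and Mrps12 higher and Mrps27 lower). Low against High and Medium against High share the High libraries.

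DESeq2 on the same counts called 4 members in the combined contrast, against a background of 4.72% of the rows to which it gave an adjusted p. Mrpl54, Mrpl20 and Mrps12 were higher (adjusted p = 0.0115, 0.0316 and 0.0469) and Mrps27 lower (adjusted p = 0.0483). It called 3 members in Low against High (background 4.08%), 0 in Medium against High (4.31%) and 1 in Low against Medium (1.73%). Of 67 members, these counts lay near or below the background. limma-voom called 0 members in all 4 comparisons.

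Across the members tested, the fold changes of the 2 subunits lay differently. In the combined contrast, 23 of 27 small subunit genes had a positive log2 fold change and 4 a negative one, with a median of 0.55 (quartiles 0.15 and 0.87). Large subunit genes were split into 22 positive and 18 negative of 40, with a median of 0.06 (quartiles -0.72 and 0.54), and this median was -0.09 without Medium replicate 2. All 7729 rows had a median of -0.12, with 3548 positive and 4181 negative. Leaving out 1 library moved that median more than those of the subunits, to -0.63 without Medium replicate 2 and 0.32 without High replicate 1. Without High replicate 1 the large subunit median (0.03) lay below that of all rows, and the small subunit median (0.72) above it.

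Counted over every detected row with each library raised to 3 counts, the medians were 0.19 for the large and 0.69 for the small subunit. In Low against High the medians were 0.09 and 0.47, and in Medium against High 0.16 and 0.72, for the large and small subunit. Low and Medium lay close to each other, with medians of 0.09 and 0.05 for Low against Medium. Cytosolic ribosomal proteins had a median of 0.07 in the combined contrast, and respiratory chain subunits one of 0.13.

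**Figure D3:**
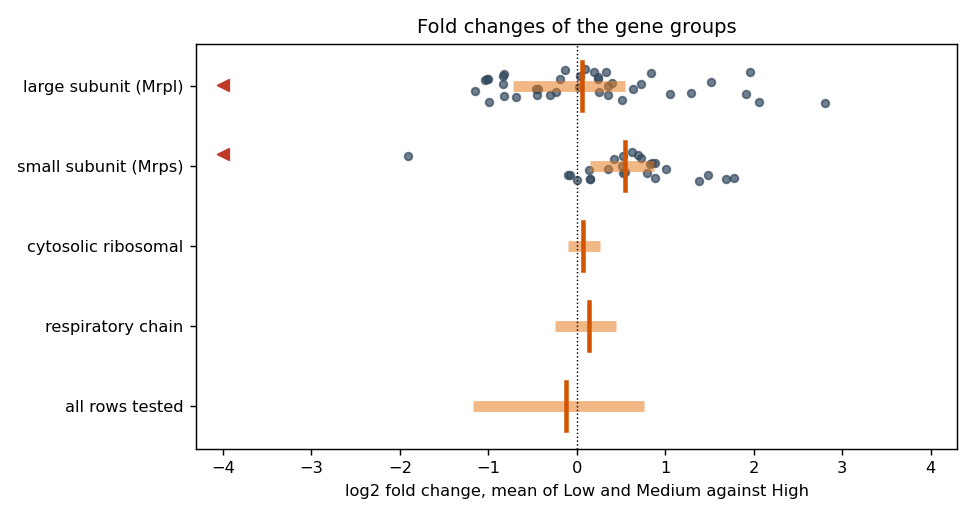
log2 fold change in the combined contrast (Low and Medium averaged, against High) for each large and small subunit gene tested (points), with the median (vertical bar) and quartiles (horizontal band) of those groups, of cytosolic ribosomal and respiratory chain genes and of all 7729 rows. Red triangles are genes beyond the axis (Mrpl15 and Mrps27); the small subunit points lie mostly right of 0 with a median of 0.55, and the large subunit points on both sides with a median of 0.06.

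For 7 members all 4 libraries of Low and Medium were higher than either High library (10.4% of the 67 tested, background 8.06% of all rows), and for 3 all 4 lay below (4.48%, background 10.1%). The share of higher members was thus near the background, and 57 members overlapped. The 7 were Mrpl54, Mrpl20, Mrpl36, Mrpl41, Mrps12, Mrps17 and Mrps33, and the 3 were Mrpl45, Mrps27 and Mrps18a. With libraries scaled by their totals alone, 13 were higher (19.4%, background 14.0% of all rows), including the same 7, and 2 lower (2.99%, background 6.15%), and that scaling raised the median fold change of all rows by 0.38 on the log2 scale.

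Mrpl54, a protein of the large subunit without a bacterial counterpart, stood at 75.8 and 99.96 CPM on High, 305 and 174 on Medium, and 278 and 248 on Low. The lowest of the 4 Low and Medium libraries was thus well above the higher High library. Its log2 fold change was 1.51 ± 0.48 (SE), with an edgeR unadjusted p of 0.0106 and an adjusted p of 0.694. This was the smallest p of a member in the combined contrast.

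Mrps12 is the counterpart of bacterial S12, which sits at the decoding site. Its level was 55.8 and 32.9 CPM on High, 154 and 94.1 on Medium, and 247 and 124 on Low. The log2 fold change was 1.77 ± 0.71 (SE), with an unadjusted p of 0.0322 and an adjusted p of 0.801 by edgeR. The films were ordered High, Medium, Low in their means, but the Medium and Low libraries overlapped.

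Mrpl20, a counterpart of bacterial L20, stood at 28.2 and 28.6 CPM on High, 77.9 and 90.5 on Medium, and 104 and 168 on Low. Here the 3 films did not overlap one another. The log2 fold change was 1.91 ± 0.89 (SE), with an edgeR adjusted p of 0.801.

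Mrpl36 is a counterpart of bacterial L36, a small zinc-binding protein. It stood at 17.7 and 36.3 CPM on High, 173 and 103 on Medium, and 86.1 and 72.8 on Low, with a log2 fold change of 1.95 ± 0.94 (SE) and an adjusted p of 0.801 by edgeR. Both Medium libraries were above both Low libraries, and both Low libraries above High.

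Mrpl41, a protein specific to mitochondria, stood at 2.68 and 21.5 CPM on High, 108 and 50.8 on Medium, and 94.3 and 84.1 on Low, the largest log2 fold change among the members tested with a mean log2 CPM of at least 3 (2.80 ± 1.39, SE). Its edgeR adjusted p was 0.801, and the High libraries differed widely from each other. In counts, High held 13 and 90, against 310 to 651 elsewhere.

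Mrps17 (82.2 and 10.7 CPM in High, 95.5 to 206 in the other libraries) and Mrps33 (222 and 89.0 in High, 226 to 285 elsewhere) completed the 7. For both, High replicate 1 lay only slightly under the lowest of the others, so the separation rests on a narrow gap. Mrps33 is specific to mitochondria, and Mrps17 has a bacterial counterpart.

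Of the members below High, Mrps27 was the clearest. Mrps27 is a pentatricopeptide repeat protein of the small subunit. It had 55 and 138 counts on High, 0 and 0 on Medium, and 0 and 1 on Low, so it was found almost only on the High film. Against a floor of 3 counts per library, and for counting error only, its mean level on Medium was at least 43.9-fold lower than the High mean. That on Low was at least 47.2-fold lower. A count of 0 beside at least 50 in the other replicate was found in 14.4% to 23.4% of all rows tested, by film. These folds do not cover such zeros. By edgeR the unadjusted p of Mrps27 in the combined contrast was 0.0422 and its adjusted p 0.801. Its head-to-head neighbour Ptcd2 had 1 and 0 counts on High, 25 and 76 on Medium, and 0 and 0 on Low, and thus did not follow it.

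Mrpl45, which lies beside the exit tunnel and ties the large subunit to the inner membrane, stood at 232 and 187 CPM on High, 113 and 127 on Medium, and 67.8 and 165 on Low. Its log2 fold change was -0.83 ± 0.54 (SE), with an adjusted p of 0.801 by edgeR. With libraries scaled by their totals alone it was no longer below High in every library. Mrps18a stood at 33.0 and 79.4 CPM on High, 1.03 and 23.1 on Medium, and 22 and 14.8 on Low. Its log2 fold change was -1.91 ± 1.99 (SE), and the error was larger than the difference.

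**Figure D4:**
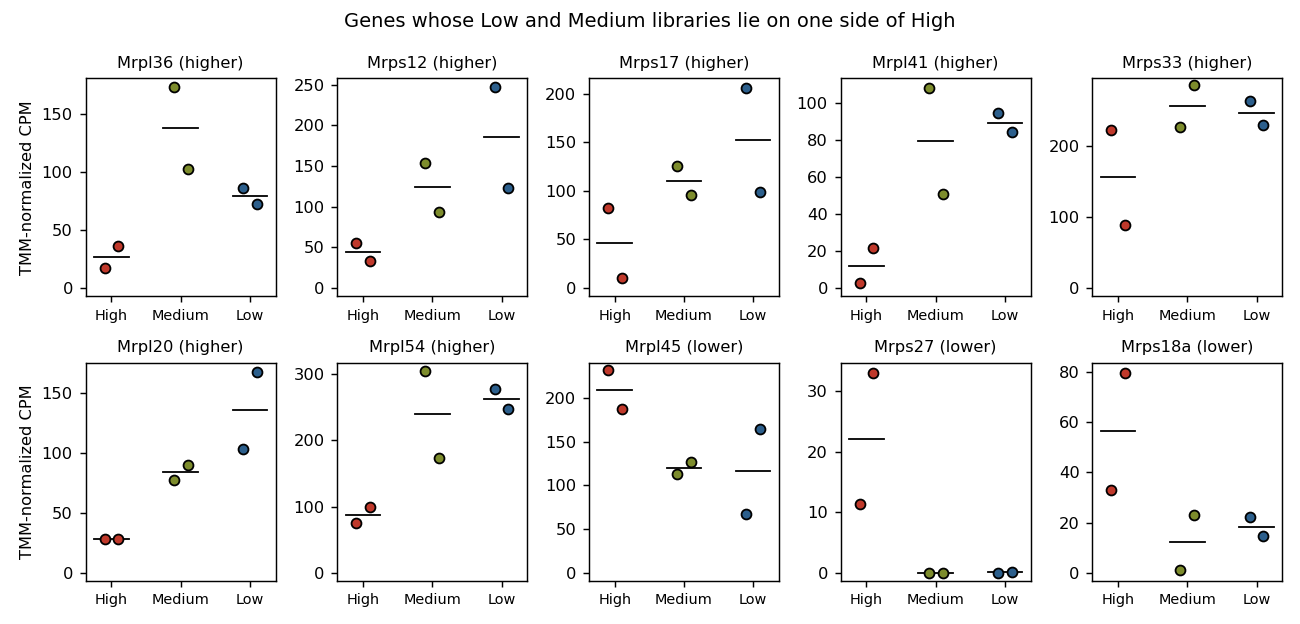
TMM-normalized CPM of the 10 genes whose 4 Low and Medium libraries all lie above (7 genes) or all below (3 genes) both High libraries, by film on a linear axis. Points are libraries and lines group means; Mrpl20 is at 28.2 and 28.6 in High and at 77.9 to 168 elsewhere, and Mrps27 is at or near 0 in all Medium and Low libraries.

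Other genes with a large fold change did not separate the films. Mrpl4, a counterpart of bacterial L4, had 23 and 0 counts on High, 0 and 69 on Medium, and 0 and 208 on Low, and its log2 fold change of 2.06 ± 4.20 (SE) turned negative when Medium replicate 2 (-1.93) or Low replicate 2 (-2.74) was left out. Mrpl3, at the peptidyl transferase centre, stood at 199 and 85.4 CPM on High, 15.1 and 82.2 on Medium, and 82.9 and 86.3 on Low (log2 fold change -1.15 ± 0.86, SE). High replicate 1 was far above the rest and Medium replicate 1 far below it. The log2 fold change of Mrpl3 was -0.41 without High replicate 1 and -0.77 without Medium replicate 1. Mrpl19, Mrpl2 and Mrpl32 had log2 fold changes of -1.04, -1.01 and -1.0, with standard errors of 2.0, 1.18 and 1.10. The value of Mrpl19 was -6.34 without Medium replicate 2 and -2.95 with limma-voom, and that of Mrpl2 was -0.31 without High replicate 1 and that of Mrpl32 -0.64 without High replicate 2. Mrpl2 is the counterpart of bacterial L2, and Mrpl32 is cut to its mature form by the m-AAA protease before it joins the ribosome. Mrpl15 had 112 and 7 counts on High, 0 and 0 on Medium, and 66 and 0 on Low. For counting error only, its Medium mean was at least 24.6-fold under the High mean, while its Low libraries overlapped those of High.

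Genes were also grouped by role. The stalk, which recruits translation factors to the large subunit, is represented by Mrpl10 and Mrpl12. Mrpl10 stood at 116 and 226 CPM on High, 122 and 207 on Medium, and 205 and 161 on Low. Mrpl12 stood at 101 and 60.4, 38.3 and 45.8, and 117 and 88.6 CPM. Their sum was 252 ± 48.6, 207 ± 66.0 and 286 ± 51.0 CPM (n = 2) in High, Medium and Low, and the films overlapped.

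Around the exit tunnel, the 4 genes Mrpl22, Mrpl23, Mrpl44 and Mrpl45 summed to 446 and 386 CPM on High, 283 and 354 on Medium, and 163 and 377 on Low (416 ± 42.3, 318 ± 50.6 and 270 ± 151, n = 2). This sum was highest in High, opposite to that of all large subunit genes, but with a narrow gap between 377 and 386. Mrpl22 stood at 169 and 127 CPM in High and 81.0 to 129 in the others. Mrpl23 reached its highest level, 98.7 CPM, in Medium replicate 2 and lay at 14.6 to 47.9 elsewhere.

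The 3 members of the S18 family differed from each other. Mrps18b stood at 51.1 and 119 CPM on High, 105 and 192 on Medium, and 207 and 188 on Low (log2 fold change 1.01 ± 0.61, SE). Mrps18c stood at 15.2 and 94.5, 122 and 65.8, and 40.3 and 112 CPM. Mrps18a, the one built into the large subunit, had its highest level in High.

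The small subunit genes of the head and the decoding region (Mrps2, Mrps5, Mrps7, Mrps10, Mrps12 and Mrps14) summed to 363 and 385 CPM on High, 642 and 553 on Medium, and 674 and 583 on Low (374 ± 15.1, 597 ± 62.8 and 628 ± 64.3, n = 2). All 5 that were tested had a positive log2 fold change, with a median of 0.82. Mrps12 contributed most to the difference. Mrps7 stood at 37.1 and 108 CPM in High and 96 to 148 in the others, and Mrps2 at 81.4 and 66.3 on High, 189 and 142 on Medium, and 60.3 and 154 on Low. Mrps14 (48.2 and 136 CPM in High, 83.8 to 99.7 elsewhere) and Mrps5 (141 and 41.5 in High, 54.9 to 137 elsewhere) differed more between the High replicates than between films.

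Between Low and Medium no member was called, and those with the smallest unadjusted p were Mrps21, Mrpl13, Mrpl38, Mrpl37 and Mrpl18. For Mrps21, Low was below Medium with a log2 difference of -1.39 ± 0.51 (SE), an edgeR unadjusted p of 0.0208 and an adjusted p of 1. Mrpl13, a counterpart of bacterial L13, stood at 61.8 and 138 CPM on High, 220 and 113 on Medium, and 41.0 and 45.8 on Low, with a log2 difference of Low against Medium of -1.94 ± 0.86 (SE) and an adjusted p of 1. Mrpl37 stood at 97.0 and 140 CPM on High, 216 and 122 on Medium, and 92.0 and 45.8 on Low, a log2 difference of -1.29 ± 0.76 (SE). In Mrps21, Mrpl13 and Mrpl37, both Medium libraries lay above both Low libraries.

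Mrpl38 showed the widest gap between these films. It had 383 and 113 counts in Medium, 0 and 0 in Low, and 1 and 10 in High. For counting error only, its mean level in Medium was thus at least 89.8-fold higher than in Low. Its unadjusted p was 0.0544 and its adjusted p 1 by edgeR, and it was the 1 member that DESeq2 called in Low against Medium. In the opposite direction, Mrpl18 was higher in Low, by 0.79 ± 0.50 (SE) on the log2 scale.

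Libraries of the same film differed from each other in the range seen between films. The median absolute log2 difference over the 67 members was 0.96, 0.96 and 0.65 between replicates, and ran from 0.54 to 1.45 between libraries of different films. As a fold between replicates this was 1.94 for High, 1.95 for Medium and 1.57 for Low, and 50.7%, 52.2% and 62.7% of them were within 2-fold. By subunit, the fold on High was 2.41 for small and 1.76 for large subunit genes, with 40.7% and 57.5% within 2-fold. On Medium it was 1.86 and 1.965, and on Low 1.67 and 1.52, in the same order. Over all rows tested, 49.1%, 39.4% and 48.4% were within 2-fold. Cytosolic ribosomal proteins were within 2-fold in 98%, 98% and 99% and respiratory chain subunits in 81.3%, 80% and 76%. The median count of a row was 428 for the members, 4948 for cytosolic ribosomal proteins and 1637 for respiratory chain subunits.

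Part of this spread came from single libraries at 0. In 11 members 1 library of a film had 0 counts where its replicate had at least 50. Among the 67 tested, this held for 2 (2.99%) on High, 6 (8.96%) on Medium, and 4 (5.97%) on Low, against 14.4%, 23.4% and 14.9% of all rows tested. The 6 on Medium were 5 of 40 large subunit genes (12.5%) and 1 of 27 small subunit genes (3.70%). Medium replicate 1 had 12 of the 70 rows at 0, the other libraries 4 to 8. Mrpl48 had 0 counts in Medium replicate 1 and 769 in replicate 2, with 544 and 582 in High and 978 and 731 in Low.

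Mrps11, a counterpart of bacterial S11, had 331 and 0 counts on High, 921 and 69 on Medium, and 274 and 113 on Low. Mrpl44 had 108 and 191 counts on High, 6 and 160 on Medium, and 0 and 315 on Low. Mrpl42 had 224 and 0 counts on High, 6 and 364 on Medium, and 166 and 187 on Low. Mrpl19 had 0 counts in Medium replicate 1 and 423 in replicate 2. The zero fell in High replicate 2 for Mrps11 and Mrpl42, in Medium replicate 1 for Mrpl48 and Mrpl19, and in Low replicate 1 for Mrpl44. The 2 rows of Mrpl1 had 84 and 72 counts in High replicate 1 and 2 each in Low replicate 1, and because reads with several alignments were counted, they may share reads.

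**Figure D5:**
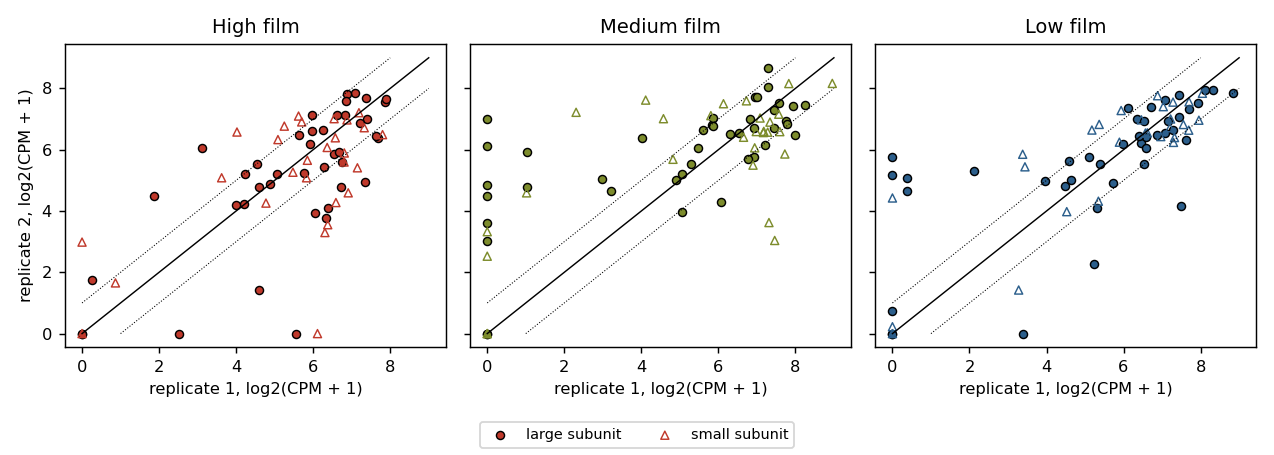
Level of each of the 70 rows in replicate 2 against replicate 1 of the High (left), Medium (middle) and Low (right) film, on log2(TMM-normalized CPM + 1) axes, with the line of equality (solid) and 2-fold differences (dotted). Between 50.7% and 62.7% of the tested rows were within 2-fold, and the points at 0 on an axis are rows without a count in that library.

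Other genes of mitochondrial translation were described from lists chosen beside the members. None of the 6 mitoribosome subunits with other symbols (Dap3, Chchd1, Aurkaip1, Ptcd3, Gadd45gip1 and Ict1) was called, and 4 had a positive and 2 a negative log2 fold change in the combined contrast. Dap3, a GTP-binding protein of the small subunit, stood at 106 and 149 CPM on High, 100.1 and 157 on Medium, and 94.2 and 91.5 on Low. Of 23 listed genes for mitoribosome assembly and rRNA modification, 21 were tested and 0 called, with 10 positive and 11 negative.

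Among the assembly genes, Afg3l2, a subunit of the m-AAA protease that matures Mrpl32, stood at 44.3 and 85.9 CPM on High, 0 and 3.44 on Medium, and 23.6 and 10.2 on Low (log2 fold change -3.58 ± 2.21, SE). Rpusd4, a pseudouridine synthase of the mitochondrial large rRNA, stood at 18.7 and 0.239 on High, 55.8 and 39.4 on Medium, and 49.7 and 68.8 on Low. With 1 higher and 2 lower of the 21 tested (4.76% and 9.52%, background 8.06% and 10.1%), the shares of separated genes in this list were no larger than those of all rows. Rpusd4 was higher, and Afg3l2 lower, in every Low and Medium library than on High. The same held in the lower direction for Trub2, another pseudouridine synthase (82.8 and 43.4 CPM on High, 0 to 41.9 elsewhere), and edgeR called none of the 3. Of 12 translation factors, 10 were tested and 0 called, with 5 positive and 5 negative. In these 3 lists 0 genes had an unadjusted p under 0.05 by edgeR, and DESeq2 called 0.

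Of 14 genes for mitochondrial DNA and RNA, 13 were tested and 0 called, 6 positive and 7 negative, while 3 were lower in both High libraries than in any other (23.1%, background 8.06%) and 1 was higher (7.69%, background 10.1%). The 1 gene higher on High was Polg2, an accessory subunit of the mitochondrial DNA polymerase, at 25.1 and 73.2 CPM on High and 0 to 7.89 elsewhere. Slirp and Lrpprc, which together stabilise mitochondrial messenger RNAs, were among the 3 lower on High. Slirp stood at 753 and 847 CPM on High, 1457 and 1255 on Medium, and 1051 and 1144 on Low (log2 fold change 0.61 ± 0.21, SE, edgeR adjusted p = 0.778). Lrpprc stood at 125 and 83.5 CPM on High, 176 and 254 on Medium, and 216 and 306 on Low (1.18 ± 0.48, SE, edgeR adjusted p = 0.801). Ssbp1, the single-stranded DNA binding protein of mitochondria, stood at 28.8 and 27.7, 76.4 and 152, and 48.1 and 165 CPM. Slirp and Lrpprc had an unadjusted p under 0.05 by edgeR (0.017 and 0.0334), and Slirp was the 1 gene of the list that DESeq2 called.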

How the data were processed

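RNA of 6 libraries (2 for each of 3 films) was sequenced from the 3′ end with a QuantSeq kit. The authors mapped single-end reads with Bowtie2, took coverage of each gene by unique as well as multiple alignments with Bedtools, and deposited whole-number counts without normalization, 1 table per library. The submitters' processing notes name rn6, and tool versions and the annotation are not given in the sources used here. A read that fits several genes can count for each, so near-identical genes are uncertain, and PCR duplicates were not described as removed, so intervals and floors cover counting error only. The labels name another RNA isolation reagent than the methods.

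Libraries were grouped by film from their titles. Total counts were 5124863 to 6213676, and 0 columns of other samples were present. Counts were filtered with filterByExpr (7729 rows left), normalized with TMM and tested in 1 fit of the 3 film means with edgeR's quasi-likelihood test (R 4.3.3, edgeR 4.0.16, limma 3.58.1), with Benjamini-Hochberg adjustment over all rows and a threshold of 0.05. The common dispersion was 2.04, with 3 residual degrees of freedom. Each SE was derived from that test, as the absolute log2 fold change divided by the square root of the F statistic. It therefore holds no information beyond the fold change and the test. Levels are TMM-normalized CPM computed from the counts, and means ± SD are over 2 libraries. Replicates of a film differed far beyond sampling noise (chi-square per degree of freedom 145 to 189.9), so none was counted as a duplicate. The fit was run on simulated counts, with a pass mark set only at a dispersion far below that of these data. That pass mark does not speak to how many changed genes would be called here.

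The members and gene lists were chosen with earlier results of these data known. Named genes were the 5 highest in each subunit, those with the 5 largest fold changes in each direction (mean log2 CPM of at least 3), up to 5 that separated High from the other films in each direction, up to 5 with the smallest p for Low against Medium, up to 6 with a zero in 1 replicate, those at 0 everywhere, and those of fixed role groups. Mrps17 and Mrps33 completed a count of 7 and were named after their values were seen, as were Mrpl1, Mrpl15, Mrpl49, Mrps25, Mrps36, Mrps30, the neighbour Ptcd2, Trub2, Rpusd4 and Polg2. Alternatives were DESeq2 1.42.0, limma-voom, other scalings and filters, subsets of films, a replicate block and leaving out each library. Promoters and gene starts were taken from RefSeq (GRCr8).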

Additional observations from a re-analysis of the deposited data

Results flagged for a closer look

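Mrpl38, a large subunit gene, was singled out because its listed counts lay above High in both Medium libraries (383 and 113 against 1 and 10) and under High in both Low libraries (0 and 0). Since a count of 0 allows up to 3 counts, Low cannot be placed below High replicate 1, so no opposite direction is shown. The difference of Low against Medium was -10.89 ± 4.92 (SE) on the log2 scale, with an edgeR unadjusted p of 0.0544 and an adjusted p of 1. This fitted value depends on how zeros are treated. Against a floor of 3 counts per library, and for counting error only, the Medium mean was at least 89.8-fold above the Low mean. Its cause was not tested.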

How the results depend on the processing

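With 2 libraries a film and a common dispersion of 2.04, counts of calls depend on the method and on single libraries. Members called by edgeR were 0 in each comparison, and by DESeq2 3 in Low against High, 0 in Medium against High, 1 for Low against Medium and 4 for Low and Medium averaged against High, where DESeq2 called 291, 307, 118 and 351 of all rows. Leaving out 1 library at a time gave 0 to 0, 0 to 2, 0 to 2 and 0 to 1 calls in the same order, and the calls came without Medium replicate 2 (Mrpl48 and Mrps25 in both comparisons with 2 calls, Mrpl48 alone in the last), where 275, 194 and 242 of all rows were called, against 1, 0 and 10 with every library. The summed level (log2 0.38) was 0.77 with library sizes alone, and 0.28 without High replicate 2 to 0.49 without High replicate 1. With library sizes alone the medians were 0.45 (large subunit) and 0.96 (small subunit), while that scaling shifted the median of all rows by 0.38. Leaving out 1 library gave -0.09 to 0.19 (large), 0.33 to 0.72 (small), against -0.63 to 0.32 for all rows, and 0.29 to 0.47 for the log2 difference of the small to large ratio (0.38). Genes above High in every library were 13 with library sizes alone (19.4%, all rows 14.0%), and those below were 5 without ribosomal RNA rows in the totals (7.46%, all rows 10.7%). Mrpl4 turned to -4.97 with the replicate block, -1.93 without Medium replicate 2 and -2.74 without Low replicate 2, with 8.85 without High replicate 1 as its highest value. Replicate numbers did not pair the libraries (correlations of deviations 0.0033, -0.0003 and 0.0122), and the replicate block gave 0 called members in every comparison and medians of -0.05 (large) and 0.66 (small). Of the other values recomputed for single genes, 175 kept their direction and side of the threshold. The causes of these differences were not tested. Depth limits the genes with few counts.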
